A study of Mus musculus with 8 samples.

Results

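The 10 genes described here handle iron and heme: Tfrc, Steap3, Slc11a2, Fth1, Aco1, Ireb2, Hmox1, Slc40a1, Slc11a1 and Spic. A probe set, the group of short probes that an Affymetrix array uses to measure a transcript, was taken where the platform annotation gave it a single gene symbol and that symbol was one of these. This gave 25 probe sets for the 10 genes, among 45056 probe sets in the table and 18193 genes with a probe set of their own. Of the 25, 3 are control probe sets that the maker placed along the Tfrc transcript. The samples were B cells of the germinal centre (GC), the site in lymphoid follicles where B cells that met antigen proliferate and change their antibodies by mutation. The 4 MYC-positive and the 4 MYC-negative samples both came from spleens of 8-week-old GFPMYC knock-in mice on C57BL6, in which MYC is made as a fusion to green fluorescent protein, and all had received sheep red blood cells as antigen 12 days earlier. Magnetic beads enriched the B cells, the GC gate was PNAhi/CD95hi, and GFP alone parted them into the MYC-positive and the MYC-negative fraction. The descriptions name a partner for every sample, which gives 4 pairs of a positive and a negative fraction; the protocol speaks of each mouse and the design text of pools, so whether a pair is 1 animal is not settled, and the p-values then measure only the spread between these samples.

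Cells take up iron mostly as transferrin, which the transferrin receptor, the product of Tfrc, carries into endosomes; there the reductase Steap3 reduces the iron and the transporter Slc11a2 (DMT1) moves it to the cytosol. Spare iron is stored in ferritin, whose heavy chain is made from Fth1. The iron regulatory proteins, made from Aco1 and Ireb2, bind hairpins in messenger RNAs when iron is scarce, which protects Tfrc RNA from decay and holds back translation of ferritin and of the exporter ferroportin. In the spleen, red-pulp macrophages take up worn-out red cells, break heme down with heme oxygenase 1 (Hmox1) and release the iron through ferroportin (Slc40a1). Slc11a1 (NRAMP1) moves iron out of phagosomes, and Spic is a transcription factor that these macrophages need. In other cells MYC has been described to raise Tfrc and Ireb2 and to lower Fth1.

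Signals are the deposited array intensities, which shared about the same trimmed mean on all arrays (496.8 to 498). The share of probe sets over a signal of 100 was 34.7% to 39.2% in MYC-positive and 38.3% to 42.6% in MYC-negative arrays. The median signal was 28.2 to 39.7 in MYC-positive and 41.4 to 55.8 in MYC-negative arrays. Myc had signals of 361, 932, 644 and 891 in the MYC-positive arrays of pairs 1 to 4, against 33.3, 156, 105 and 137 in the MYC-negative arrays, which checks the labels and is no finding because the cells were sorted on the fusion. Markers of B cells were bright in both fractions: the summed signal of 5 B cell genes (Cd79a, Cd79b, Ms4a1, Cd22 and Cr2) ran from 28213 to 35497 in MYC-positive and from 36705 to 43828 in MYC-negative arrays, while 6 T cell markers summed to at most 135 in MYC-positive and 162 in MYC-negative arrays. Cd22 and Cr2 were lower in the MYC-positive samples, and none of the 5 was higher. Of 5 GC B cell markers tested, Fas and Mybl1 were lower and 0 higher, with sums of 17033 to 20386 in MYC-positive and 23155 to 31672 in MYC-negative arrays. Of 4 plasma cell markers tested, Sdc1 (2.02 on the log2 scale) and Irf4 (1.57) were higher. Tnfrsf17, untested and lower in the MYC-positive array of 3 of 4 pairs, was included in the sums. These sums were 11883 to 13120 in MYC-positive and 4806 to 5792 in MYC-negative arrays. Irf4, which activated B cells also express, made up most of these sums; without it they were 2368 to 3319 in MYC-positive and 1891 to 2391 in MYC-negative arrays, with a ratio of 1.13 in pair 3. Of 19 macrophage markers on the array, 15 were tested, 8 were higher and 1, Apoe, was lower in the MYC-positive samples. These markers were listed for red-pulp macrophages, but not all of them are particular to that type. Their summed signal was 9633, 4386, 1471 and 3339 in MYC-positive arrays of pairs 1 to 4, against 1605, 1540, 970 and 762 in MYC-negative arrays, so its ratio was lowest in pair 3.

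In outline, the macrophage-type genes Slc40a1, Slc11a1 and Hmox1 were higher in the MYC-positive samples, Tfrc was higher with 1 of its 3 ordinary probe sets, and storage and sensor genes did not pass the test. A probe set entered the test if its log2 signal, averaged over the 8 arrays, exceeded the 40th percentile, equal to a signal of 18.7. Of the 22 ordinary probe sets of the 10 genes, 15 passed this filter, for 9 genes; Steap3 had none. Among these 15, limma called 4 higher and 0 lower in the MYC-positive fraction at an adjusted p under 0.05 (7 higher and 0 lower at an unadjusted p under 0.05). Over all 27022 probe sets tested, 7.8% were called higher and 13.6% lower. The median log2 difference of the 15 was 0.57, against -0.23 over all probe sets tested. Slc40a1 and Spic passed the filter only through their MYC-positive arrays, so these counts and medians describe the probe sets that passed and are no support for a direction. The fractions did not overlap for 4 of the 15 probe sets (26.7%), where 23% of all tested probe sets had fractions that did not overlap. The calls depended on the arrays. Without pair 1 or without pair 2 only 1 of these probe sets was called, the one of Slc40a1. Leaving out pair 3 gave 5 and leaving out pair 4 gave 6. Calls over the whole array changed too. Among all 27022 probe sets tested, 2109 were called higher and 3675 lower with all 4 pairs. These counts were 342 and 408 without pair 1, and 727 and 1365 without pair 2. They were 1564 and 2115 without pair 3, and 2854 and 5303 without pair 4.

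**Figure D1:**
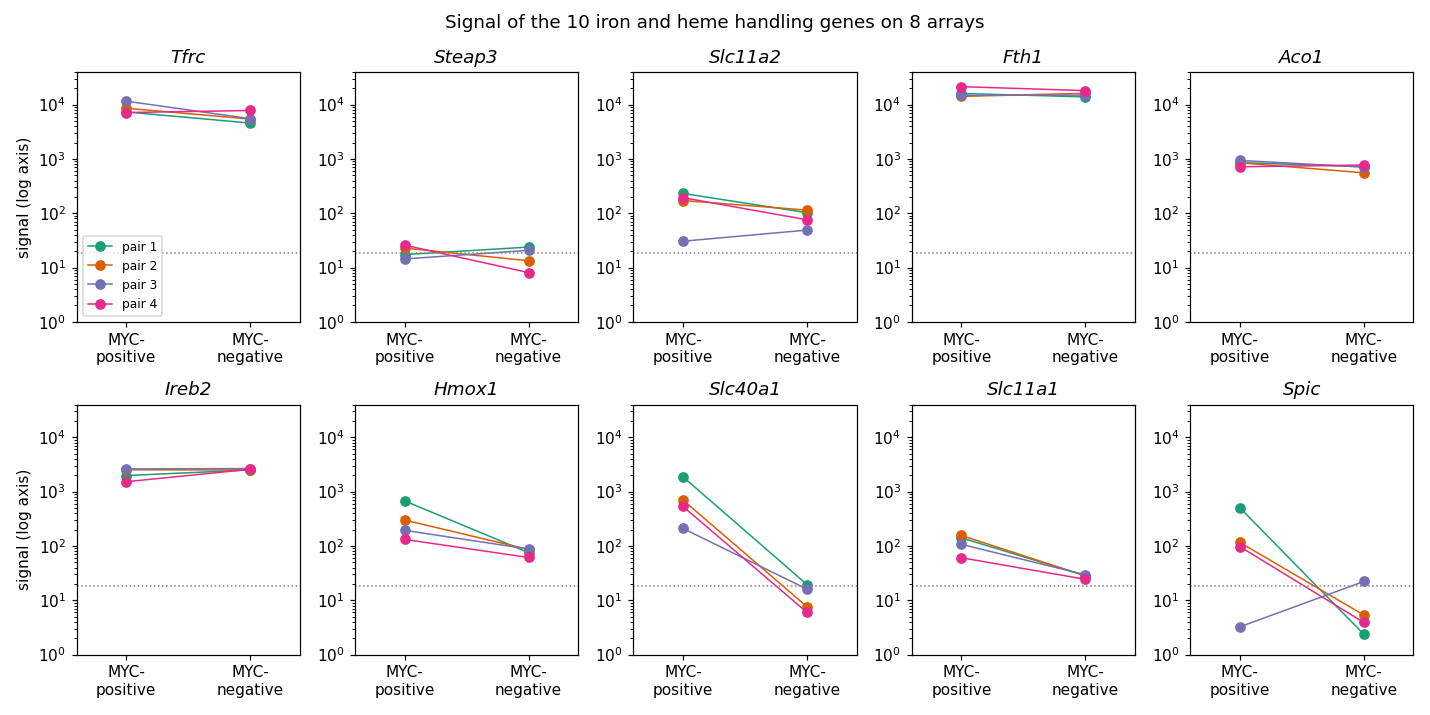
Array signal (log axis) of the highest-signal ordinary probe set of each gene, with MYC-positive arrays on the left and MYC-negative arrays on the right of each panel and a line for each of the 4 pairs; the dotted line is the filter level of 18.7. Slc40a1, Hmox1 and Slc11a1 do not overlap between the fractions, and for Spic the MYC-positive array of pair 3 lies at 3.24, below its partner.

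Tfrc, the uptake receptor gene, was well above the filter level in both fractions. Its brightest probe set (1452661_at) read 7321, 8556, 11556 and 7135 in the MYC-positive arrays of pairs 1 to 4, against 4567, 5412, 5496 and 7778 in the MYC-negative arrays. The MYC-positive array was the higher one in 3 of 4 pairs and the fractions overlapped, because the MYC-negative array of pair 4 was above its partner. The log2 difference was 0.57 (SE 0.19, n = 4 pairs), a fold of 1.49, and did not pass (limma adjusted p = 0.062). It lay between 0.41 and 1.01 over the alternatives, with adjusted p from 0.0013 without pair 4 to 0.22 without pair 1, and it passed under 5 of 13. Besides the fit without pair 4 these were median centring (1.01, adjusted p = 0.0093) and the mean over the tested Tfrc probe sets (0.92, adjusted p = 0.017). The others were signals under 16 set to 16 (adjusted p = 0.039) and the stricter filter (adjusted p = 0.046).

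A second Tfrc probe set, 1422966_a_at, gave the clearer separation. It read 594, 962, 985 and 731 in MYC-positive arrays, against 232, 267, 397 and 452 in MYC-negative arrays. Every MYC-positive array was above every MYC-negative one, and the log2 difference was 1.30 (SE 0.25, adjusted p = 0.012), a fold of 2.47, higher in 4 of 4 pairs. The call was lost without pair 1 (adjusted p = 0.076) and without pair 2 (0.067). The dimmest of the ordinary Tfrc probe sets, 1422967_a_at, read 103, 174, 157 and 47.5 in MYC-positive arrays, against 41.8, 94.1, 72.6 and 41.5 in MYC-negative arrays. It was also higher in 4 of 4 pairs, but the fractions overlapped and the log2 difference of 0.87 (SE 0.37) did not pass (adjusted p = 0.13; 0.030 after quantile normalization, where it was 1.32).

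The maker's control probe sets for Tfrc lie near the 3′ end, in the middle and near the 5′ end of the transcript and were left out of the fit. The 3′ one read 369, 539, 572 and 367 in MYC-positive arrays, against 118, 163, 191 and 193 in MYC-negative arrays. The middle one read 305, 204, 288 and 103 in MYC-positive arrays, against 69.7, 67.3, 105 and 80.1 in MYC-negative arrays. Both were higher in the MYC-positive array of each of the 4 pairs, by 0.93 to 1.73 and by 0.36 to 2.13 on the log2 scale, and only the 3′ one kept the fractions apart. The 5′ one was dim on all arrays, between 7.51 and 60.9 in MYC-positive and between 7.04 and 18.6 in MYC-negative arrays. The signal of the 3′ probe set was 8.86 to 48.8 times that of the 5′ one in MYC-positive arrays and 7.94 to 23.2 times in MYC-negative arrays; whether the labelled cDNA reached less far from the 3′ end in either fraction was not tested. Leaving out the 5′ one, every Tfrc probe set read higher in the MYC-positive array of its pair, except the brightest in pair 4; all of these readings come from the same 8 arrays.

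The stretch of sequence before the start of Tfrc is shown because its probe set 1422966_a_at passed the test, although its brightest did not. The same stretch is given for Slc11a1 and Spic, which are expressed by macrophages, to set beside it. RefSeq promoter windows of the mouse build GRCm38.p6 were on hand for 7 of the 10 genes, 12 windows in all, each with 250 bases before and 50 after an annotated start. None was on hand for Slc40a1, Slc11a2 and Hmox1, so these genes were not searched. They were searched on both strands for CACGTG, the E-box letters that MYC with its partner MAX is known to bind, and for TGACNNNGC, the core of the antioxidant response element. Neither was found in any of the 12 windows, where 7.15% and 12.4% of all 32851 windows held them, which says only that these letters are not in these windows. Printed are the 250 bases before the start, 5′ to 3′ on the strand of the gene, all in lower case because no searched letters are in them. They lie at chr16:32608646-32608895 (plus strand) for Tfrc, chr1:74374953-74375202 (plus strand) for Slc11a1 and chr10:88683024-88683273 (minus strand) for Spic.
Tfrc: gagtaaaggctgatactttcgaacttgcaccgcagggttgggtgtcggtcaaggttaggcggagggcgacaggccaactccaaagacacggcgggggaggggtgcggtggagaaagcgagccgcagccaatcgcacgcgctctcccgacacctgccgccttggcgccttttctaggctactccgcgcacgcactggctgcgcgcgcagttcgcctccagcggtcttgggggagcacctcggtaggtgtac
Slc11a1: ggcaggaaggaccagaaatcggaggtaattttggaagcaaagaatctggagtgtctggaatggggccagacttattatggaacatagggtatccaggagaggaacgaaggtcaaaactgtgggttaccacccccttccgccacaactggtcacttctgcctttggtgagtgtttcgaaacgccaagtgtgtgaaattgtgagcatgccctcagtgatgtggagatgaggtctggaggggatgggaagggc
Spic: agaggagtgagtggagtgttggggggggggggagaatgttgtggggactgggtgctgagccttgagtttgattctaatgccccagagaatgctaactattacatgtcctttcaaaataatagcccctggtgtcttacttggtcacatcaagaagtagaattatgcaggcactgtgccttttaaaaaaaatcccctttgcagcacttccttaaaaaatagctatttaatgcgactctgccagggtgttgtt

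The genes of the endosomal partners of the receptor showed no difference past the test. Slc11a2 had 4 probe sets, of which 3 were tested. The brightest (1452078_a_at) read 231, 171, 30.5 and 193 in MYC-positive arrays, against 102, 114, 48.9 and 75.6 in MYC-negative arrays. The MYC-positive array was higher in pairs 1, 2 and 4 and lower in pair 3, and the log2 difference was 0.61 (SE 0.43, 95% interval -0.37 to 1.59, adjusted p = 0.34). The others tested were at -0.02 (1417584_at, adjusted p = 0.98), which became 0.43 after quantile normalization, and at 0.39 (1426441_at, adjusted p = 0.67), which became -0.31 without pair 4. Steap3 had 3 probe sets, none of which passed the filter. Its brightest read 17.3, 22.8, 14.4 and 25.8 in MYC-positive arrays, against 23.8, 13.3, 20.7 and 8.05 in MYC-negative arrays. With all probe sets tested, the log2 differences of the 3 were 0.37, -0.24 and -1.09, with adjusted p from 0.33 to 0.91, in a test of 45037 probe sets that called 4.06% higher and 6.81% lower; signals this near the filter level limit what could be detected.

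Fth1, the ferritin heavy chain gene, showed no difference past the test with either of its probe sets. The one with the higher mean (1448771_a_at) read 16003, 14151, 14760 and 21371 in MYC-positive arrays, against 13847, 16119, 14944 and 18064 in MYC-negative arrays. Positive arrays were the higher ones in 2 of 4 pairs, and the log2 difference was 0.06 (SE 0.11, adjusted p = 0.73) with a 95% interval from -0.19 to 0.32; quantile normalization turned it to -0.13, and median centring gave 0.50. The other probe set (1427021_s_at) read 8507, 6970, 4580 and 10185 in MYC-positive arrays, against 8374, 7989, 8351 and 5390 in MYC-negative arrays. Its log2 difference was -0.03 (SE 0.25, adjusted p = 0.94), with pair differences from -0.87 to 0.92 that went both ways, and 0.41 after median centring. The suffix _s_at marks probes shared by several transcripts, and ferritin genes have near-identical copies, so these Fth1 values may include other transcripts.

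The genes of the iron regulatory proteins did not pass the test either. Ireb2 read 1976, 2524, 2618 and 1523 in MYC-positive arrays, against 2510, 2507, 2658 and 2580 in MYC-negative arrays. In pairs 2 and 3 the arrays of a pair differed by at most 0.02 on the log2 scale, and in pairs 1 and 4 the MYC-positive array was lower. The log2 difference was -0.28 (SE 0.18, 95% interval -0.68 to 0.12, adjusted p = 0.28) and 0.16 after median centring. Aco1, which encodes a protein that is an aconitase when it holds an iron-sulphur cluster and binds RNA when it does not, read 855, 849, 936 and 715 in MYC-positive arrays, against 717, 554, 706 and 770 in MYC-negative arrays (1423644_at). This was a log2 difference of 0.29 (SE 0.20, adjusted p = 0.34), higher in 3 of 4 pairs, and 0.73 with adjusted p = 0.032 after median centring. The other tested Aco1 probe set was at -0.05 (SE 0.20, adjusted p = 0.89) and at 0.39 after median centring.

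**Figure D2:**
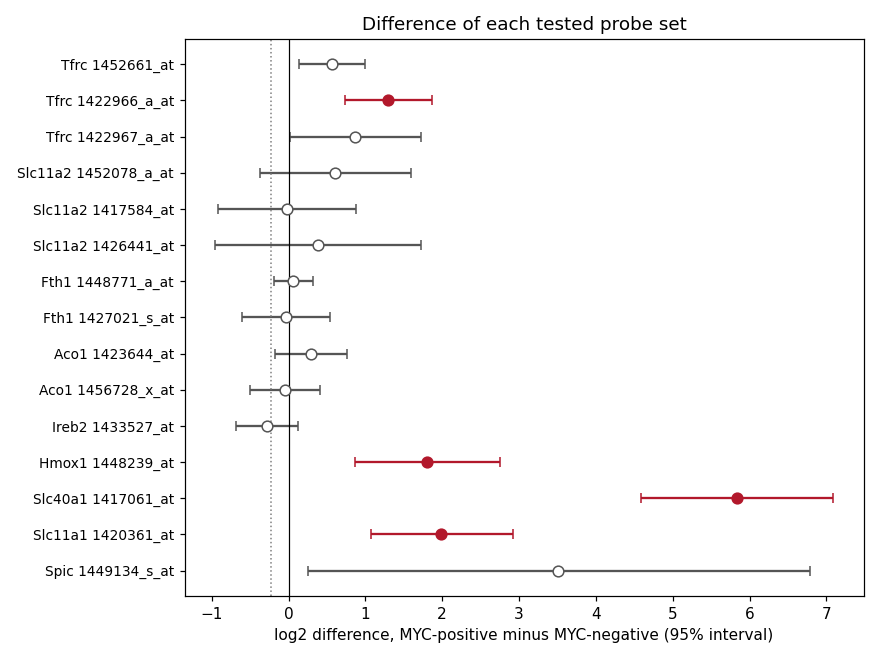
Log2 difference, MYC-positive minus MYC-negative, of the 15 tested probe sets with its 95% interval; filled red points have an adjusted p under 0.05, and the dotted line is the median of all probe sets tested, -0.23. The called points are Tfrc 1422966_a_at (1.30), Hmox1 (1.80), Slc40a1 (5.83) and Slc11a1 (1.99), and the interval of Spic is the widest.

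The genes of iron recycling by red-pulp macrophages showed the largest differences of the 10. Slc40a1, the ferroportin gene, read 1869, 699, 210 and 533 in MYC-positive arrays, against 19.4, 7.59, 16 and 5.96 in MYC-negative arrays (1417061_at). It was far above the filter level in every MYC-positive array and within 1 signal unit of it or below it in the MYC-negative ones. The log2 difference was 5.83 (SE 0.54, adjusted p = 0.0014), higher in 4 of 4 pairs, and 5.20 with signals under 16 set to 16, so the fold against such dim arrays is poorly determined. The other Slc40a1 probe set, under the filter, read 95, 28.3, 10.5 and 39.5 in MYC-positive arrays, against 13.3, 2.68, 4.04 and 2.87 in MYC-negative arrays. With all probe sets tested it was at 2.85 (SE 0.68, adjusted p = 0.031).

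Hmox1, which encodes the heme-degrading enzyme, read 676, 300, 194 and 132 in MYC-positive arrays, against 75.3, 86, 87.7 and 61.3 in MYC-negative arrays. The MYC-negative arrays lay close together while the MYC-positive ones spread widely, and the groups did not overlap. The log2 difference was 1.80 (SE 0.41, adjusted p = 0.020), a fold of 3.49. The call was lost without pair 1, where the difference was 1.35 (adjusted p = 0.10), and without pair 2 (adjusted p = 0.072) and, with no intensity trend, was just missed (adjusted p = 0.051). Slc11a1 read 141, 156, 107 and 60.6 in MYC-positive arrays, against 28.4, 28.1, 29.4 and 24.3 in MYC-negative arrays. The fractions were apart here too, with a log2 difference of 1.99 (SE 0.40, adjusted p = 0.014), a fold of 3.98. Its call was lost without pair 1 (adjusted p = 0.085) and without pair 2 (0.069).

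Spic, the transcription factor gene, differed between pairs. Its brighter probe set (1449134_s_at) read 506, 116, 3.24 and 97.3 in MYC-positive arrays, against 2.36, 5.34, 22.2 and 3.9 in MYC-negative arrays. As for Fth1, the suffix _s_at marks shared probes, so these values may include other transcripts. In pairs 1, 2 and 4 the MYC-positive array was far above the filter level and its partner below it, while in pair 3 the MYC-positive array was below its partner. The log2 difference of 3.51 (SE 1.42) did not pass (adjusted p = 0.11); without pair 3 it was 5.61 (adjusted p = 0.011), and with signals under 16 set to 16 it was 2.49 (adjusted p = 0.023). The probe set under the filter (1418555_x_at) read 377, 102, 1.45 and 66.4 in MYC-positive arrays and at most 1.69 in MYC-negative arrays, and the array of pair 3 again lacked the signal of the other MYC-positive arrays. With all probe sets tested it was higher by 5.16 (SE 1.15, adjusted p = 0.025), although its MYC-negative arrays were all far under the filter level.

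Of the 15 tested macrophage markers, 8 were higher, 1 was lower and 6 did not pass. The lower one, Apoe, was at -1.87 (SE 0.38, limma adjusted p = 0.014), lower in 4 of 4 pairs with no overlap. It read 215, 124, 74.9 and 161 in MYC-positive arrays, against 628, 914, 375 and 268 in MYC-negative arrays. Vcam1, which encodes an adhesion molecule of red-pulp macrophages, read 1221, 573, 174 and 402 in MYC-positive arrays, against 18.7, 7.2, 1.95 and 11.7 in MYC-negative arrays. Csf1r, the receptor gene for macrophage colony-stimulating factor, read 1915, 715, 74.9 and 429 in MYC-positive arrays, against 76, 2.89, 3.09 and 1.27 in MYC-negative arrays. The fractions were apart for Vcam1 and overlapped for Csf1r, where the MYC-negative array of pair 1 was above the MYC-positive array of pair 3. The log2 differences were 5.98 for Vcam1 and 6.40 for Csf1r, and 4.82 and 4.28 with signals under 16 set to 16. The other higher markers were C1qa (5.07), C1qb (3.86) and C1qc (5.10) of complement, the lysozyme gene Lyz2 (3.40), Cd163 (4.26) and Cd5l (1.81); with that floor C1qa was at 3.69, C1qc at 2.84 and Cd163 at 2.51. Adgre1, which encodes the macrophage antigen F4/80, was at 0.63 (SE 0.55, adjusted p = 0.44) and Cd68 at 0.51 (SE 0.32, adjusted p = 0.28). Treml4 was at 1.22 (SE 0.86, adjusted p = 0.34). Each of these read lower in the MYC-positive array of pair 3 than in its partner, as did the untested Mertk and Siglec1. Several of the tested markers, among them Vcam1, Csf1r, C1qa, C1qc and Cd163, passed the filter mainly through their MYC-positive arrays. The counts and differences of the markers are therefore a description and support no direction. The median log2 difference of the 15 tested markers was 3.16, against -0.06 over all 11754 genes tested with 1 probe set each, of which 10.7% were called higher and 10.5% lower. In sorted samples, more cells of a type and more RNA per cell cannot be told apart, and the part that macrophage RNA had in the differences of Slc40a1, Hmox1, Slc11a1 and Spic was not tested.

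Set out pair by pair, the macrophage-type genes and Tfrc did not run in the same order. The summed macrophage markers were higher in the MYC-positive array by 2.59, 1.51, 0.60 and 2.13 on the log2 scale in pairs 1 to 4. Without Apoe, the marker called lower, they were 3.27, 2.77, 1.23 and 2.69, so pairs 2 and 4 changed order while pair 1 stayed highest and pair 3 lowest. Slc40a1 differed by 6.59, 6.52, 3.71 and 6.48, with its lowest value in pair 3, where the marker sum and Spic (-2.78) were also lowest. Hmox1 differed by 3.17, 1.80, 1.14 and 1.11 and Slc11a1 by 2.32, 2.47, 1.87 and 1.32, with their lowest values in pair 4. The brightest Tfrc probe set differed by 0.68, 0.66, 1.07 and -0.12 and the called one by 1.36, 1.85, 1.31 and 0.69. In pair 3, where the marker sum differed least, the brightest Tfrc probe set differed most. The called Tfrc probe set differed most in pair 2, and both had their lowest differences in pair 4. With 4 pairs no test of these orders was made.

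**Figure D3:**
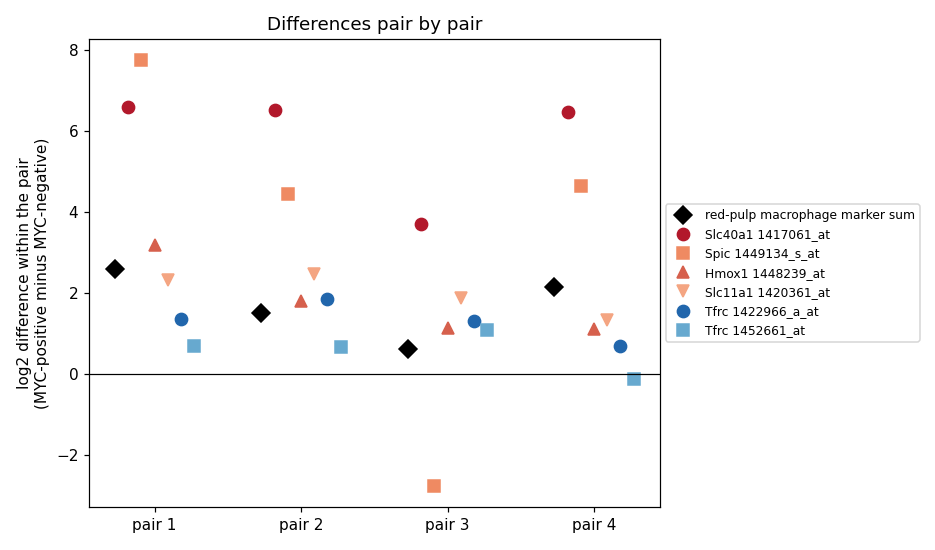
Log2 difference between the MYC-positive and the MYC-negative array of each pair, for the summed signal of 19 markers listed for red-pulp macrophages (black), the macrophage-type genes (reds) and 2 Tfrc probe sets (blues). In pair 3 the marker sum is at 0.60 and Spic at -2.78, while the brightest Tfrc probe set is at 1.07.

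Erythroid precursors also carry much transferrin receptor, and their markers were set beside the Tfrc values. Of 11 erythroid markers on the array, 4 were tested; the globin gene Hbb-b2 was higher (2.01, SE 0.50, adjusted p = 0.027) and Ermap lower (-1.77, SE 0.54, adjusted p = 0.049). The erythroid heme synthesis gene Alas2 read at most 11.7 on any array, and the erythropoietin receptor gene Epor at most 5.54, both under the filter level on all 8 arrays. Klf1 read 20.6, 34.4, 1.86 and 54.6 in MYC-positive arrays, against 1.06, 13.2, 2.15 and 2.1 in MYC-negative arrays. Neither Klf1 nor Epb42 passed the filter. With all probe sets tested in limma, Klf1 was at 2.54 (SE 0.92, adjusted p = 0.12) and Epb42 at -1.91 (SE 0.83, adjusted p = 0.18). The summed signal of the 11 markers ran from 166 to 349 in MYC-positive and from 176 to 215 in MYC-negative arrays. The sum was 1.16, 1.38, 0.944 and 1.67 times as high in the MYC-positive array in pairs 1 to 4. The brightest Tfrc probe set differed most in pair 3 and the called one in pair 2; the part of erythroid RNA in the Tfrc values was not tested.

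Beyond the 10 genes, 5 lists of other iron and heme genes held 106 symbols, of which 88 were on the array and 72 were tested with 1 probe set each. Of the 72, 12 were higher (16.7%) and 2 lower (2.78%), where 10.7% and 10.5% of all genes tested were called, and their median log2 difference was 0.19 against -0.06 over all genes. After median centring 27 were higher and 0 lower (40 and 1 at an unadjusted p under 0.05 with limma), where 24.2% of all genes tested were higher and 3.61% lower. Without pair 1 there were 2 and 0 (14 and 6 unadjusted), against 1.85% and 1.36% of all genes, and without pair 2 there were 3 and 0 (14 and 4 unadjusted), against 3.79% and 3.28%. With no intensity trend 5 were higher and 0 lower (15 and 4 unadjusted). Over all 27022 probe sets tested, 894 were then called higher and 1892 lower, against 2109 and 3675 with the trend. Without the trend the calls of Bola3, Glrx5, Nfu1, Mms19, Alad, Blvra, Zfp36, Slc39a14 and Pcbp1 were lost (adjusted p from 0.055 to 0.13). Those of Mms19, Alad and Slc39a14 were also lost with no pair block (0.055 to 0.089). Some genes belong to a marker list too: Cd163 is also a macrophage marker, and Alas2 and Tfr2 are also erythroid markers.

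Iron-sulphur clusters, the cofactors that mitochondria build from iron, had the longest list. Of its 26 genes tested, 5 were higher (19.2%) and 1 lower (3.85%), with a median of 0.25. Of all genes tested, 10.7% were called higher and 10.5% lower. Hspa9, which encodes the mitochondrial chaperone of the assembly machine, was higher by 1.23 (SE 0.15, adjusted p = 0.0028), with 5150 to 7604 in MYC-positive arrays against 1915 to 4119 in MYC-negative arrays and no overlap. Nubpl (0.90, SE 0.17, adjusted p = 0.012), which serves clusters of respiratory complex I, Bola3 (0.81, SE 0.18, adjusted p = 0.018) and Nfu1 (0.58, SE 0.15, adjusted p = 0.033), which hand clusters on to target enzymes, and Glrx5 (0.78, SE 0.19, adjusted p = 0.027), which encodes a glutaredoxin that passes them on, were higher too. Averaged over its probe sets that passed the filter, Bola3 was at 0.06 (adjusted p = 0.90). Mms19, which directs clusters to DNA enzymes, was lower (-0.68, SE 0.18, adjusted p = 0.033) and at -0.24 after median centring. Averaged over its probe sets that passed the filter, Mms19 was at -0.41 (adjusted p = 0.17). Its call was lost in 7 of 13 alternatives. The mitochondrial iron importer gene Slc25a37 was at -0.66 (SE 0.20, adjusted p = 0.051), with lower signal in the MYC-positive array of all 4 pairs, and the scaffold gene Iscu at 0.47 (SE 0.22, adjusted p = 0.16). Hspa9 kept its call when any pair was left out, and the other 5 genes lost theirs without pair 1 and without pair 2 (adjusted p between 0.054 and 0.16). Bola3 and Mms19 also lost theirs without pair 3 (adjusted p = 0.06 and 0.098).

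Of 11 heme synthesis genes tested, 2 were higher (18.2%) and 0 lower, where 10.7% and 10.5% of all genes tested were called. At an unadjusted p under 0.05 with limma, 4 were higher and 0 lower, and the median was 0.36. Abcb6, which encodes a porphyrin transporter, was higher by 1.47 (SE 0.27, adjusted p = 0.0098), with 407, 478, 349 and 417 in MYC-positive arrays against 200, 152, 118 and 134 in MYC-negative arrays. The fractions were well apart for this gene. Alad, which encodes the enzyme that joins aminolevulinate into porphobilinogen, was higher by 0.80 (SE 0.22, adjusted p = 0.038). Averaged over its probe sets that passed the filter, Alad was at 0.41 (adjusted p = 0.25). Both calls were lost without pair 1 (adjusted p = 0.052 for Abcb6 and 0.15 for Alad) and without pair 2 (0.057 and 0.13). The ferrochelatase gene Fech was at 0.51 (SE 0.18, adjusted p = 0.080), and Alas1, which encodes the housekeeping form of the rate-limiting synthase, at 0.48 (SE 0.28, adjusted p = 0.25).

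Of 10 tested genes of heme uptake, transport and breakdown, 2 were higher (20%) and 0 lower. The shares of all genes tested were 10.7% and 10.5%. At an unadjusted p under 0.05 with limma, 2 were higher and 0 lower, and the median was 0.19. Blvra, which encodes the biliverdin reductase that acts after heme oxygenase, was higher by 0.89 (SE 0.22, adjusted p = 0.024; 0.13 without pair 1 and 0.078 without pair 2). The hemoglobin scavenger receptor gene Cd163 read 301, 130, 46.8 and 38.1 in MYC-positive arrays, against 2.54, 10.3, 5.26 and 3.74 in MYC-negative arrays, and passed the filter only through the MYC-positive arrays. Its log2 difference was 4.26 (SE 0.70, adjusted p = 0.0071), 2.51 with signals under 16 set to 16 and 3.38 without pair 1. Abcg2, which encodes an exporter of porphyrins and many other compounds, read 63.5, 136, 120 and 39.6 in MYC-positive arrays, against 2.9, 1.84, 3.12 and 10.1 in MYC-negative arrays, and stayed under the filter by its mean. With all probe sets tested it was higher by 4.47 (SE 0.78, adjusted p = 0.011), with no overlap between the fractions. Hmox2, the constitutive heme oxygenase gene, was at 0.17 (SE 0.19, adjusted p = 0.56), and Bach1, which encodes the heme-sensing repressor of Hmox1, at -0.41 (SE 0.19, adjusted p = 0.16) with a lower MYC-positive array in all 4 pairs. The heme exporter gene Flvcr1 was at 0.47 (SE 0.21, adjusted p = 0.14).

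Of 12 tested genes of iron uptake, storage and export, 2 were higher (16.7%) and 0 lower, against 10.7% and 10.5% of all genes tested. At an unadjusted p under 0.05 with limma, 3 were higher and 0 lower, and the median was 0.08. The 2 called genes were Slc39a14, which encodes a carrier of zinc and of iron not bound to transferrin (1.03, SE 0.30, adjusted p = 0.043), and Pcbp1, which encodes an iron chaperone of ferritin that also binds RNA (0.58, SE 0.15, adjusted p = 0.030). Both calls were lost without pair 1, without pair 2 and without pair 3, with adjusted p from 0.10 to 0.20 for Slc39a14 and from 0.054 to 0.14 for Pcbp1. The call of Pcbp1 was also lost with no intensity trend (adjusted p = 0.13), and that of Slc39a14 in 7 of 13 alternatives, among them the mean over probe sets (0.86, adjusted p = 0.15) and no pair block (adjusted p = 0.089). Ncoa4, the cargo receptor gene of ferritin breakdown, was at -0.21 (SE 0.18, adjusted p = 0.44), and Hfe at 1.97 (SE 0.62, adjusted p = 0.055). Of 13 tested genes of iron sensing and the hepcidin pathway, 1 was higher and 1 lower (7.69% each), with a median of -0.12. Both shares were below those of all genes tested. Skp1, a subunit gene of the ubiquitin ligases that include the one for Ireb2 protein, was higher by 0.91 (SE 0.14, adjusted p = 0.0052; 0.057 without pair 1). Zfp36, whose product speeds the decay of many messenger RNAs, was lower (-0.97, SE 0.22, adjusted p = 0.021; -0.52 with adjusted p = 0.14 after median centring), and its call was also lost without pair 1, pair 2 or pair 3 (adjusted p from 0.070 to 0.12). Fbxl5, the iron-sensing subunit gene of the ligase for Ireb2 protein, was at -0.24 (SE 0.18, adjusted p = 0.37).

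**Figure D4:**
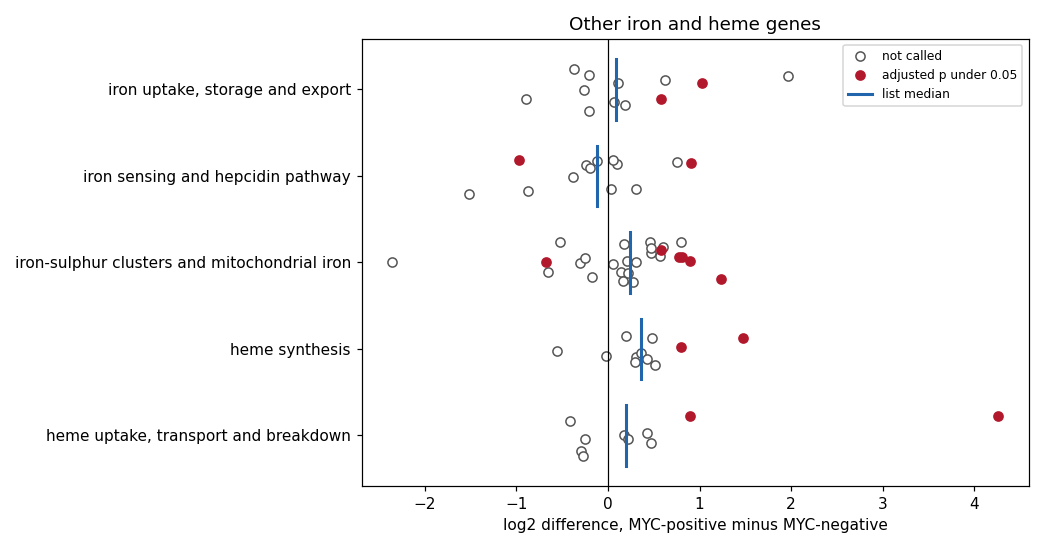
Log2 difference, MYC-positive minus MYC-negative, of the 72 tested genes of 5 other iron and heme lists; each point is a gene, filled red points have an adjusted p under 0.05, and blue bars are list medians. The medians run from -0.12 for iron sensing to 0.36 for heme synthesis, and Cd163 is the point at 4.26.

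The genes whose log2 profile over the 8 arrays was nearest to that of the brightest Tfrc probe set, by root-mean-square difference after centring, were Ipo5 (0.072), Twistnb (0.097), Dpy19l1 (0.106), Htatsf1 (0.110) and Strap (0.112). Ipo5, which encodes a nuclear import receptor, was at a log2 difference of 0.61 and Strap at 0.59, and the others lay between 0.43 and 0.52. The nearest to Hmox1 were Dse (0.279), Focad (0.300), the macrophage gene Cd5l (0.361), Mir1949 (0.398) and Serpinb9 (0.402). These values describe 8 arrays that form 4 pairs and share the same split, with no test.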

How the data were processed

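The authors deposited 1 value per probe set and array, a signal intensity on a linear scale; MAS5 is the tool in the submitters' processing notes, with its version and scaling target not stated there. Per the labels' protocols, total RNA (5 to 20 ng) was amplified to cDNA, which was biotin-labelled and put on Affymetrix arrays. No detection calls were used, and the number of arrays limits the precision.

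A floor of 1 was set before log2 transformation. Probe sets with a mean log2 value above the 40th percentile of the 45037 ordinary probe sets were kept (27022); 19 controls were left out. limma 3.58.1 in R 4.3.3 fitted group and pair in 1 fit (eBayes with an intensity trend, 3 residual degrees of freedom), with Benjamini-Hochberg adjustment over all kept probe sets, 2-sided, called under 0.05. Every difference is the MYC-positive value less the MYC-negative one. A gene was counted by its probe set with the highest mean. Genes came from the platform annotation, whose symbols the RefSeq table left as they were. Simulated arrays served to test the fit. With 4 pairs the smallest exact p from flipping signs is 0.125, so no such test was made.

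The pairs come from the sample descriptions, not from the replicate numbers in the titles; deviations of paired samples from their group means correlated at 0.22, 0.1, 0.079 and 0.15 in pairs 1 to 4. The members, lists and tests were chosen with earlier results of these data known. Named were all members, Myc, the called genes of each iron list up to 6, and the 5 nearest profiles to Tfrc and Hmox1; other genes were named after their values were seen. The alternatives were quantile normalization, median centring, a floor of 16, no filter, a filter at the 60th percentile, 1 probe set or the mean over probe sets for each gene, no pair block, no trend, and each pair left out; marker sums without Apoe or Irf4 were added after seeing the data.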

Additional observations from a re-analysis of the deposited data

Results flagged for a closer look

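Among 60 sets of 4 arrays checked for the named probe sets, 5 had an array set far apart from the other 3 on the log2 scale; chance alone gives about 1 in 20. Slc11a2 (1452078_a_at) read 30.5 in the MYC-positive array of pair 3, where the other MYC-positive arrays read 171 to 231. Fth1 (1427021_s_at) read 5390 in the MYC-negative array of pair 4, against 7989 to 8374 in the other MYC-negative arrays. Zfp36 read 1176 in that same array, against 1969 to 2165. Skp1 read 6338 in the MYC-positive array of pair 4, against 4567 to 4665 in the other MYC-positive arrays. Blvra read 822 in the MYC-positive array of pair 3, against 1153 to 1233.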

How the results depend on the processing

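Of 19 named probe sets called, 4 (Slc40a1, Cd163, Hspa9 and Myc) stayed called wherever they were tested among 13 alternatives, and 0 of the 19 changed sign. Slc40a1 and Cd163 were tested in 12 of these, because the stricter filter removed them. Both had passed the main filter only through their MYC-positive arrays, and the cells were sorted on the MYC fusion. Staying called is therefore no support for Slc40a1, Cd163 or Myc. Probe sets called higher were 2109 as reported, 5038 after median centring, 1319 with 1 probe set a gene, 1167 with the mean over probe sets, 894 without the trend and 342 to 2854 with a pair left out; those called lower were 3675 as reported, 1657 after median centring, 1352 with 1 probe set a gene, 1592 with the mean over probe sets, 1892 without the trend, 2309 with no replicate block and 408 to 5303 with a pair left out. Of all calls 36.5% were higher as reported, 50.5% after quantile normalization and 75.3% after median centring, which moved the median difference of -0.23 to -0.01 and 0.21. Called member probe sets numbered 4, 7 after median centring and 1 to 6 with a pair left out. Iron list genes called higher numbered 12, 27 after median centring, 5 without the trend and 2 to 17 with a pair left out; those called lower numbered 2, 5 with the floor of 16, 4 with the mean over probe sets, 1 with no replicate block, 0 after median centring and without the trend (1 and 4 at an unadjusted p under 0.05 in limma), and 0 to 7 with a pair left out. Signs turned only for uncalled probe sets: Slc11a2 1417584_at was at 0.43 and 0.42 after quantile normalization and median centring and -0.17 to 0.15 with a pair left out; Slc11a2 1426441_at was at -0.31 to 0.69 with a pair left out; Fth1 1448771_a_at was at -0.13 after quantile normalization; Fth1 1427021_s_at was at 0.41 after median centring and -0.35 to 0.25 with a pair left out; Aco1 1456728_x_at was at 0.09 and 0.39 under those scalings and -0.14 to 0.03; Ireb2 was at 0.16 after median centring. Settings with 1 value a gene test fewer features and those without a pair use fewer arrays; otherwise the cause was not tested. Without the pair as a block, 1596 probe sets were higher, and 4 member probe sets were called. The marker sums, as mean log2 ratios over pairs, were 1.71 for macrophages (2.49 without Apoe) and 1.23 for plasma cells (0.54 without Irf4), both settings chosen after seeing the data. Signals near the filter level limit Steap3, Spic and the MYC-negative values of Slc40a1.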
